A study of Mus musculus with 6 samples.

Results

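The genes of mouse chromosome 2 were followed in 6 mammary tumors, and 1 tumor, IgG replicate 3, was set against the other 5. Members were the Ensembl gene IDs placed on chromosome 2 of GRCm38 by the GENCODE M21 annotation, with a mean of at least 0.5 FPKM (fragments scaled by exon length and by library size) over the 6 tumors. Of 3803 gene IDs of this chromosome in the deposited values, 2096 were above 0 in at least 1 tumor and 1185 met the rule, which is 7.86% of the 15069 genes that met the same level on all chromosomes. The members comprised 986 protein-coding genes and ran from position 3114224 to position 181870830. Just inside the level were Gm13965 (mean 0.501 FPKM) and Gm11688 (0.502 FPKM), and just outside it were Gm14057 (0.497 FPKM) and Gm13620 (0.496 FPKM). IgG replicate 3, in contrast, was chosen by its measured FPKM values on this chromosome in earlier results of the same data, while the members were selected on position and mean FPKM. Its differences from the other tumors are therefore given as a description, with no test.

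All 6 tumors came from NeuT/ATTAC mice. This strain carries a mammary-directed (MMTV promoter) NeuT transgene, which encodes Erbb2, and the FAT-ATTAC transgene, which was moved from C57BL/6 into FVB by crossing. AP20187, given to both groups i.p. at 0.4 mg/kg from 6 weeks of age, acts on the FAT-ATTAC product in fat and induces fibrosis (biweekly by the labels, triweekly by the methods of the study). From 8 weeks of age the mice received 100 μg of an IgG control mAb (IgG, 3 tumors) or of anti-PD-1 mAb (anti-PD-1, 3 tumors), with a separate set of values for each replicate. A legend of the study speaks of pooled RNA for the groups, so that it could not be settled whether a replicate is 1 tumor or a pool. It is called a tumor here, and for pools the values, SE and p below would describe pools. The labels do not state that the tumors of a group came from different mice, so that p-values measure the spread between these samples only. Total RNA of whole tumors was sequenced. In such bulk RNA, fewer cells of a type and less RNA per cell cannot be told apart.

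Chromosome 2 is an autosome, and most of its protein-coding genes have promoters of their own, while small RNAs within introns are often made from the host transcript. It carries several gene clusters, among them the Hoxd homeobox genes, the WAP four-disulfide core protease inhibitors, the cystatins and the Bpif genes of saliva and airway fluid, as well as imprinted genes such as Gnas. Genes with well-known roles in the mammary gland also lie here, including the transcription factors Gata3 and Elf5 and the receptor Notch1. Only RNA was measured, and DNA copy number was not analysed here.

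Promoters of 5 genes are shown because the results turn on their genes. Duox1 and Duoxa1 are adjacent genes with opposite orientation that were far higher in IgG replicate 3, and Secisbp2l was another. Agps went the other way, and B2m was among the most abundant genes of the chromosome without being highest in this tumor. Each sequence is the 150 bases before the RefSeq start on GRCm38.p6, read 5′ to 3′ on the strand of the gene. Capitals mark matches on either strand to promoter motifs, with overlapping matches merged. The motifs searched were the TATA box (the letters TATAAA), the box named for its letters CCAAT, the GC box (the letters GGGCGG) and the NF-kB motif, which is in capitals in the B2m sequence as its reverse complement. The windows were Duox1 at chr2:122315522-122315671, plus strand; Duoxa1 at chr2:122313731-122313880, minus strand; Secisbp2l at chr2:125782871-125783020, minus strand; Agps at chr2:75832027-75832176, plus strand; and B2m at chr2:122147537-122147686, plus strand.
Duox1: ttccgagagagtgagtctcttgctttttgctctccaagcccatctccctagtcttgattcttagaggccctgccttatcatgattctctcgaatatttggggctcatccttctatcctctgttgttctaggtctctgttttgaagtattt
Duoxa1: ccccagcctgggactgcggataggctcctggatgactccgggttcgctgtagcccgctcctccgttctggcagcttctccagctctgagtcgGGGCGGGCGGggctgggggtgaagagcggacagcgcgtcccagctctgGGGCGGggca
Secisbp2l: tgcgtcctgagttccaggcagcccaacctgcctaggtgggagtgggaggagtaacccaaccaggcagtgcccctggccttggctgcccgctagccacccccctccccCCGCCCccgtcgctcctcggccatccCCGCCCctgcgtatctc
Agps: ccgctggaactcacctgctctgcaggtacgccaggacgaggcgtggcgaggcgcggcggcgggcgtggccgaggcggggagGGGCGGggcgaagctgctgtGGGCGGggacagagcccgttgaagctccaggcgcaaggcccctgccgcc
B2m: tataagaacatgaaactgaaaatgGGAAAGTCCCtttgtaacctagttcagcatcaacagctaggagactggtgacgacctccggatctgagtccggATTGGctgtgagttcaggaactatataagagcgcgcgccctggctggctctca
The Duox1 window held 2 CpG and none of the motifs searched, whereas that of its neighbour Duoxa1 held 12 CpG and 3 GC boxes. Secisbp2l had 8 CpG with 2 GC boxes, and Agps, which went the other way, had 18 CpG and also 2 GC boxes. B2m was the window with an NF-kB match, beside 1 CCAAT box.

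GC boxes were common before genes that followed the chromosome and before those that did not. RefSeq promoters were matched for 911 members. A GC box was present in 51.6% of the 409 matched promoters of genes highest in IgG replicate 3, in 45.2% of the 84 matched promoters of genes lowest in it, in 51.8% of all 911, and in 35.1% of the 20611 promoters of all chromosomes, expressed or not. A CCAAT box was present in 22.2%, 26.2%, 25.7% and 26.3%, and a TATA box in 2.69%, 4.76%, 2.96% and 7.56%, in the same order. NF-kB matches were rare, at 0.489% of the highest, 0 of the lowest, 0.329% of the members and 0.213% of all promoters. The median number of CpG was 12 in the highest genes and 9 in the lowest, against 11 over the members. These matches describe letters in a window.

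The genes of chromosome 2 were shifted upwards together in IgG replicate 3. For each gene, log2(FPKM + 1) of a tumor minus the median of the other 5 tumors was taken after division by median-of-ratios factors, and the shift is the median over the chromosome minus that over all genes elsewhere. This shift was 0.25 in IgG replicate 3, a 1.19-fold higher value of FPKM + 1. IgG replicate 1 stood at -0.03 and IgG replicate 2 at -0.08. The anti-PD-1 tumors stood at -0.04, -0.00032 and -0.04. The other 5 tumors thus lay within 0.08 of 0, with an SD of 0.0277 among them, and IgG replicate 3 stood outside their range.

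Chromosome 2 was one of 3 chromosomes that stood high in this tumor. The shift of IgG replicate 3 was 0.45 on chromosome 4 and 0.47 on chromosome 9, and between -0.13 and 0.06 on the remaining 17. On chromosomes 4 and 9, however, IgG replicate 2 was as high, at 0.51 and 0.46. On chromosome 2 IgG replicate 2 was the lowest tumor, so that the chromosome 2 shift was seen in IgG replicate 3 and in no other tumor of the 6.

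**Figure D1:**
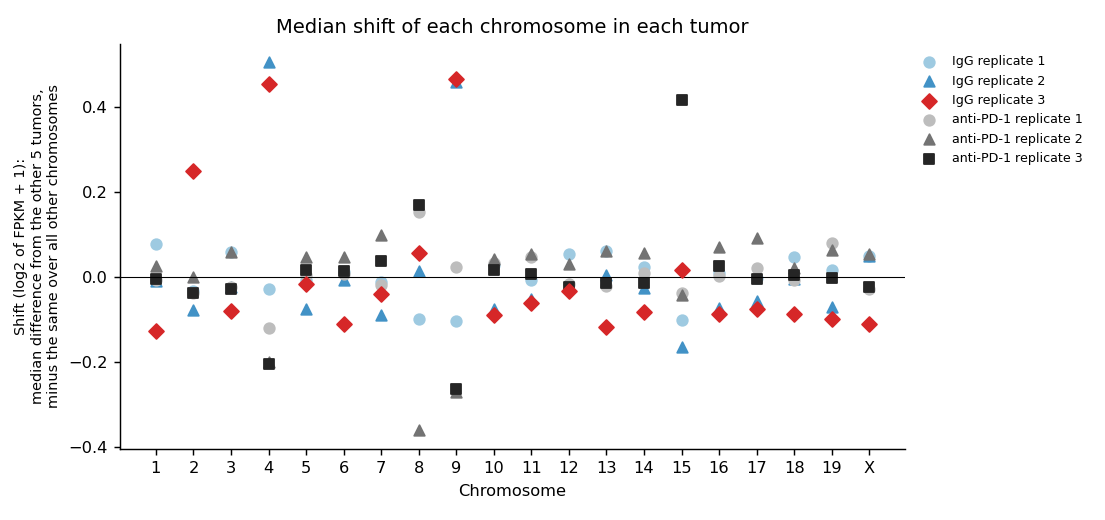
Median shift of every chromosome (x axis) in every tumor (y axis, difference in log2(FPKM + 1) from the median of the other 5 tumors, minus the same over all other chromosomes); each point is 1 tumor. On chromosome 2 IgG replicate 3 is at 0.25 and the other 5 tumors lie between -0.08 and -0.00032, whereas on chromosomes 4 and 9 both IgG replicates 2 and 3 are high.

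For most members IgG replicate 3 was a little above the median of the other tumors. IgG replicate 3 was the highest of the 6 tumors for 487 of the 1185 members (41.1%), compared with 19.3% of all genes tested. It was the lowest for 113 members (9.54%, against 20.3% of all genes), and above the median of the other tumors for 838 (70.7%, against 48.8%). Any other tumor was the highest in between 7.09% and 18.2% of the members. Since this tumor was chosen by these values, the shares are a description only.

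The whole distribution of the members lay higher, rather than a few genes. The difference of IgG replicate 3 from the median of the others was -0.71 at the 5th percentile, -0.07 at the 25th, 0.23 at the 50th, 0.49 at the 75th and 1.10 at the 95th. For genes of the other chromosomes the same percentiles were -0.84, -0.31, -0.02, 0.26 and 0.89. Every percentile given was thus higher on chromosome 2. Differences of at least 1.5-fold in FPKM + 1 were found upwards for 203 members (17.1%, against 11.3% elsewhere) and downwards for 83 (7.0%, against 10.6%).

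Along the chromosome the shift was above 0 in each of 19 bins of 10 Mb, from 0.00493 to 0.38. It was highest at 170 to 180 Mb (0.38, 37 genes), at 120 to 130 Mb (0.34, 109 genes), at 180 to 190 Mb (0.34, 42 genes) and at 90 to 100 Mb (0.33, 60 genes). The order of these bins was not firm. In bins of 5 Mb, 170 to 175 Mb was at 0.23 (25 genes) and 175 to 180 Mb at 0.56 (12 genes), and with genes of at least 5 FPKM the bin from 170 to 180 Mb was at 0.28 and the first 10 Mb were highest at 0.41 (15 genes). Between 50 and 90 Mb the 4 bins had shifts of 0.06, 0.04, 0.09 and 0.00493, and the bin from 140 to 150 Mb had 0.06. These bins, and those at 10 to 20 Mb (0.18) and 100 to 110 Mb (0.13), were within the range of other chromosomes. Over 219 bins outside chromosomes 2, 4 and 9, the shift of this tumor ran from -0.39 to 0.18, with 23.7% of the bins above 0. On chromosome 4 the bins ran from 0.34 to 0.62 and on chromosome 9 from 0.34 to 0.56, with no bin near 0.

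Grouped into stretches chosen after these values were seen, the shift was 0.27 over the first 40 Mb (335 genes), 0.08 from 40 to 90 Mb (162 genes), 0.30 from 90 to 140 Mb (340 genes), 0.06 from 140 to 150 Mb (39 genes) and 0.27 beyond 150 Mb (309 genes). IgG replicate 3 was highest for 44.8%, 25.3%, 45.6%, 28.2% and 42.1% of their genes. Taken as 1 stretch from 40 to 90 Mb, this tumor was above the other 5, which were between -0.05 and 0.03, but in 3 of its 5 bins another tumor was above it. At 60 to 70 Mb IgG replicate 2 was at 0.20 (IgG replicate 3 at 0.04), at 70 to 80 Mb anti-PD-1 replicate 2 was at 0.21 (0.09), and at 80 to 90 Mb 4 tumors were higher, up to 0.13 (0.00493). From 140 to 150 Mb IgG replicate 3 was below IgG replicate 1 (0.09) and anti-PD-1 replicate 2 (0.07). With genes of at least 5 FPKM, the 5 stretches gave 0.34, 0.14, 0.33, 0.08 and 0.33. The 2 low stretches were thus low among abundant genes also, and the bin from 60 to 70 Mb was then at -0.07. Boundaries were not estimated.

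**Figure D2:**
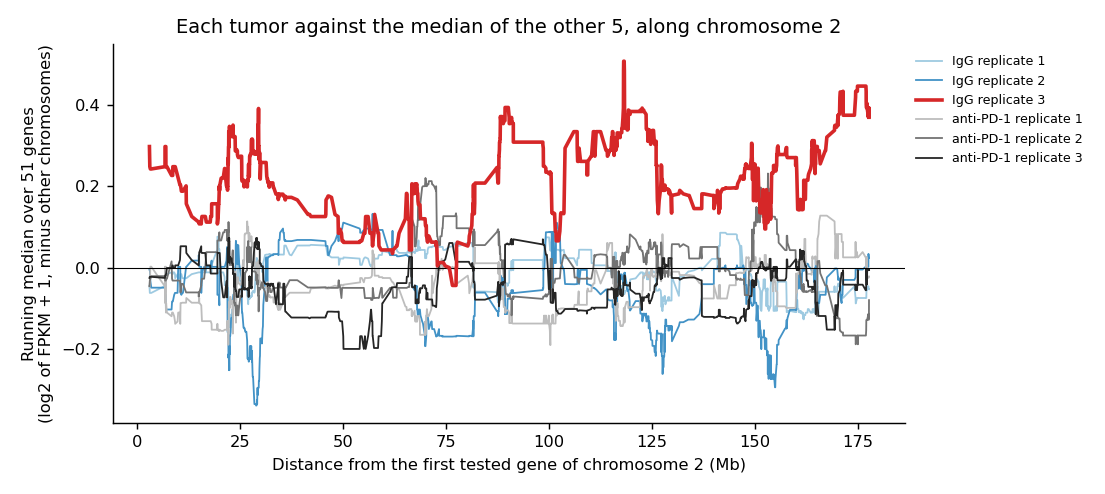
Running median over 51 neighbouring genes of the difference of each tumor from the median of the other 5 (y axis, log2(FPKM + 1), relative to the other chromosomes) against distance from the first tested gene of chromosome 2 (x axis, Mb); 1 line per tumor. IgG replicate 3 stays above the other tumors over most of the chromosome and lies among them over parts of the stretch from 40 to 90 Mb, where its shift was 0.08.

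The shift was similar for unlike kinds of gene, except pseudogenes and small RNAs. For each kind it was taken against genes of the same kind on the other chromosomes. It was 0.26 for protein-coding genes, 0.25 for 86 lncRNAs, and 0.25 on both strands. For 60 pseudogenes it was -0.16, with IgG replicate 3 highest for 10.0%, close to the 10.0% of pseudogenes elsewhere. Small RNAs (45 genes) were at 0.64, with IgG replicate 3 highest for 28.9%, against 14.5% elsewhere. By mean level it was 0.17 between 0.5 and 2 FPKM, 0.23 between 2 and 5, 0.29 between 5 and 20, and 0.28 above 20. Members with at least 10 CpG in the promoter window (531 genes) had a shift of 0.27, and those with fewer (380 genes) 0.28.

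Longer transcripts were more often highest in IgG replicate 3, on chromosome 2 and elsewhere. In 4 equal classes of exon length from the shortest to the longest, the share of members highest in this tumor went from 25.6% through 34.2% and 45.1% to 60.6%, and on the other chromosomes from 12.8% to 24.5%. The shift itself, taken against genes of the same class elsewhere, was 0.21, 0.25, 0.23 and 0.30 over these classes. Taken in this way with 10 classes of exon length, it was 0.26 for the whole chromosome.

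Among the 657 members with a mean of at least 5 FPKM, 11 were at least 2-fold above every other tumor in IgG replicate 3 (1.67%; 31 of 7309 genes elsewhere, or 0.424%), and 3 were at least 2-fold below (0.457%; 50 elsewhere, or 0.684%). This level includes IgG replicate 3 itself, so that a gene high in this tumor passes more easily than a gene low in it, and Lmx1b and Entpd2 passed only through it. With the level set on the mean of the other 5 tumors, 9 of 642 members were above (1.40%; 23 of 7279 elsewhere, or 0.316%) and 3 below (0.467%; 58 elsewhere, or 0.797%). The genes with the widest gap above were Gm9821, Duox1, Dgkz, Zfp106, Duoxa1, Secisbp2l, Fitm2, Lmx1b, St6galnac4 and Entpd2. They lay in several separate places of the chromosome, and their differences of 1.3 to 2.78 were far above the shift of 0.25. Differences given for single genes are those of IgG replicate 3 from the median of the other 5 tumors, in log2(FPKM + 1).

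Duox1, an NADPH oxidase that makes hydrogen peroxide (ENSMUSG00000033268, chr2:122315672-122347972), was at 35, 24.3 and 184 FPKM in IgG replicates 1 to 3 and at 42.1, 16.7 and 39.7 FPKM in the anti-PD-1 tumors. Duoxa1, the factor needed for its maturation (chr2:122302191-122313730), was at 52.7, 53.5 and 196 FPKM, and at 66.1, 30.2 and 69.9 FPKM. In both genes IgG replicate 3 alone was above 100 FPKM, and the other 5 tumors of the 2 groups overlapped. The log2 differences were 2.36 and 1.85. Duoxa1 overlaps Duoxa2 in the annotation, so that shared reads could not be separated. The related oxidase Duox2, next to them and chosen after its values were seen, was at 0.51, 0.14 and 2.85 FPKM, and at 0.51, 0.10 and 0.60 FPKM.

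Near Duox1 lies Shf, an adaptor protein, at 155, 153 and 286 FPKM in the IgG tumors and at 179, 204 and 173 FPKM in the anti-PD-1 tumors. Of the 7 neighbouring genes within 250 kb of Duox1, Duoxa1 included, 5 were highest in IgG replicate 3, with a median difference of 0.72. Over all members 41.1% were highest. Among the 7, Gatm, the first enzyme of creatine synthesis, differed by -0.04, and B2m, the invariant chain of MHC class I, was higher still in IgG replicate 2. The neighbours were named after their values were seen.

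Dgkz, a kinase that removes diacylglycerol (ENSMUSG00000040479, chr2:91932824-91975864), was at 36.0, 46.3 and 153 FPKM in the IgG tumors and at 32.6, 24.2 and 23.4 FPKM in the anti-PD-1 tumors. Gm9821 lies inside it on the opposite strand and was at 10.7, 10.5 and 60.5 FPKM, and at 7.86, 7.12 and 5.80 FPKM. Strand use in counting is not given in the sources used here, and reads of the pair could not be told apart. Both stood far above the other tumors in IgG replicate 3, by 2.19 and 2.78 on the log2 scale. Of the 8 neighbouring genes within 250 kb of Dgkz, Gm9821 included, 6 were highest in IgG replicate 3, with a median difference of 0.41. Over all members 41.1% were highest. Creb3l1, an ER-bound transcription factor, differed by -0.56, the lowest of the 8.

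Zfp106, a zinc finger RNA-binding protein, was at 34.3, 47.6 and 147 FPKM in the IgG tumors and at 32.3, 20.2 and 39.3 FPKM in the anti-PD-1 tumors. Secisbp2l, a relative of the selenoprotein factor Secisbp2, was at 47.4, 74.8 and 200.2 FPKM, and at 37.5, 65.9 and 45.7 FPKM. In these genes also the other tumors overlapped between the groups, and IgG replicate 3 was apart from all of them. Lmx1b, a LIM homeobox factor, was at 2.71, 8.18 and 20.6 FPKM, and at 4.10, 0.86 and 2.13 FPKM. St6galnac4, a sialyltransferase, was at 24.5, 13.7 and 61.3 FPKM, and at 22.5, 24.1 and 26.6 FPKM. Fitm2, a lipid droplet protein of the ER, and Entpd2, an enzyme that cleaves extracellular nucleotides, differed by 1.3 and 1.5.

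**Figure D3:**
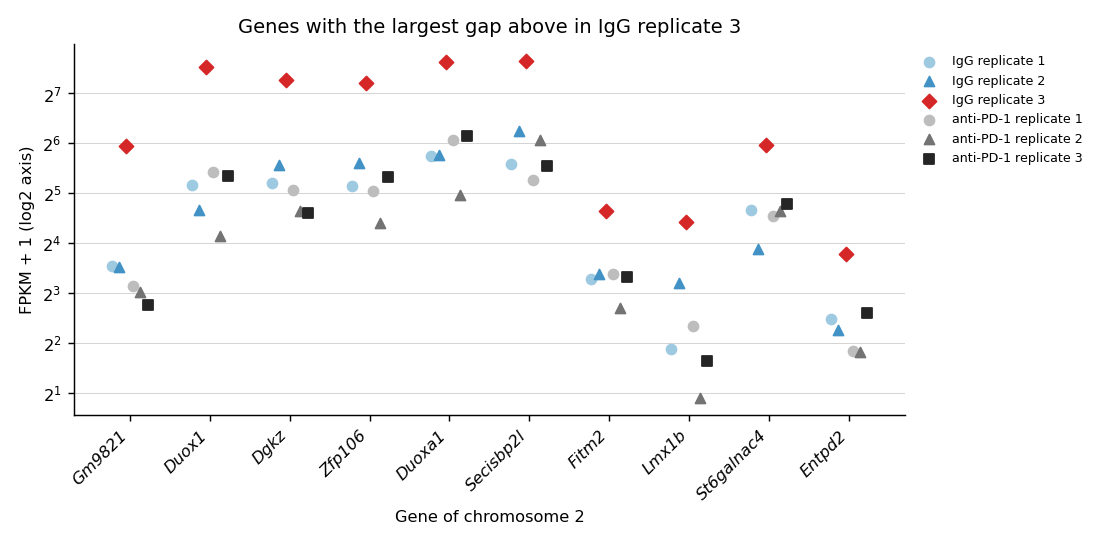
FPKM + 1 (y axis, log2 axis) in each of the 6 tumors for the 10 genes with the widest gap above the other tumors in IgG replicate 3 (x axis), among members with a mean of at least 5 FPKM. For Duox1, IgG replicate 3 was at 184 FPKM and the other 5 tumors at 16.7 to 42.1 FPKM.

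A smaller set of genes did not follow the chromosome. In 8 genes of the 12 that went furthest the other way, IgG replicate 3 was the lowest of all tumors (Cytip, Smox, Wfdc2, Agps, Lcn2, Fmnl2, Sdcbp2 and Ier5l). Lcn2, a secreted siderophore-binding protein of innate defence and the most abundant member (ENSMUSG00000026822, chr2:32384633-32388252), was at 3339, 1974 and 1089 FPKM in the IgG tumors and at 2798, 6501 and 3670 FPKM in the anti-PD-1 tumors. Smox, the spermine oxidase of polyamine breakdown (ENSMUSG00000027333, chr2:131491496-131525922), was at 38.9, 24.8 and 8.74 FPKM, and at 35.1, 35.5 and 41.0 FPKM. For Smox the 5 other tumors lay close together, and only IgG replicate 3 was apart, by -1.91 on the log2 scale.

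Cytip, a cytohesin partner of leukocytes, was at 8.00, 15.7 and 0.96 FPKM in the IgG tumors and at 7.54, 3.87 and 4.76 FPKM in the anti-PD-1 tumors. Its difference of -2.13 was the largest among those in which this tumor was lowest. Agps, a peroxisomal enzyme of ether lipid synthesis, was at 59.3, 18.6 and 12.6 FPKM, and at 31.6, 41.4 and 42.8 FPKM. Cytip and Agps lie between 50 and 80 Mb, within the stretch of small shift, whereas Smox and Lcn2 lie within stretches of large shift. Wfdc2, a WAP-domain secreted protein, was at 7.97, 4.50 and 1.58 FPKM, and at 8.26, 7.27 and 14.8 FPKM. Fmnl2, a formin of the actin cytoskeleton, Sdcbp2, a syntenin, and Ier5l differed by -1.51, -1.48 and -1.3. For Fmnl2 and Ier5l, every IgG tumor was below every anti-PD-1 tumor. Their log2 fold changes of anti-PD-1 against IgG were 1.31 and 1.01. Without IgG replicate 3 these fold changes were 1.06 and 0.80, so that the low values of Fmnl2 and Ier5l were not particular to this tumor.

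The other 4 genes of this set stayed within the range of the other tumors. Bpifa2, a secreted protein of salivary glands, was at 54.5, 3033 and 0.041 FPKM in the IgG tumors, at 1273 FPKM in anti-PD-1 replicate 1, and was listed at 0 in anti-PD-1 replicates 2 and 3. Cst10, a cystatin, was at 12.6, 554 and 0.20 FPKM, and at 228, 0.49 and 0.10 FPKM. Both genes were thus high in IgG replicate 2 and anti-PD-1 replicate 1, and IgG replicate 3 was among 3 tumors near 0. Wfdc5 was below 0.6 FPKM in all 3 IgG tumors and at 9.96, 70.3 and 11.9 FPKM in the anti-PD-1 tumors. Vim, the mesenchymal intermediate filament, was at 42.9, 22.0 and 22.6 FPKM, and at 64.5, 78.0 and 112 FPKM. For Wfdc5 and Vim the negative difference of IgG replicate 3 was shared by the other IgG tumors. The same held in part for Fmnl2 and Ier5l, although IgG replicate 3 was the lowest tumor there.

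**Figure D4:**
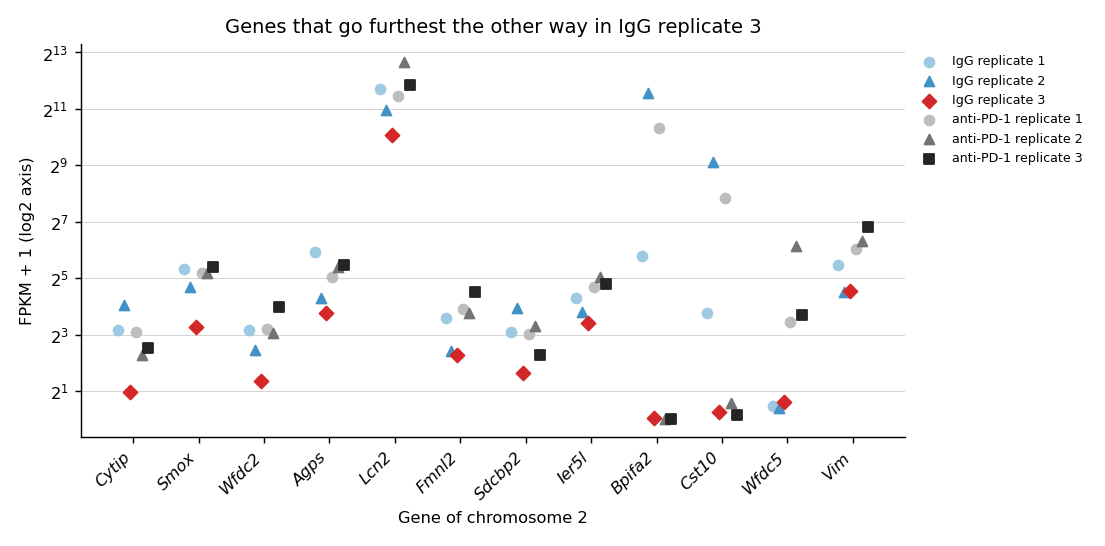
FPKM + 1 (y axis, log2 axis) in each of the 6 tumors for the 12 genes that went furthest against the chromosome in IgG replicate 3 (x axis), among members with a mean of at least 5 FPKM; the 8 at the left were lowest in this tumor. For Smox, IgG replicate 3 was at 8.74 FPKM and the other 5 tumors at 24.8 to 41.0 FPKM.

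Among the 10 most abundant protein-coding members, IgG replicate 3 was highest in 1 and lowest in 4. B2m was at 1655, 4386 and 2687 FPKM in the IgG tumors and at 1009, 1672 and 1626 FPKM in the anti-PD-1 tumors. Serinc3, a membrane protein, was at 590.0, 876 and 798 FPKM, and at 328, 462 and 410.3 FPKM. In both, IgG replicate 3 was above the median of the others by 0.70 and 0.78, below IgG replicate 2. Rpl7a, a ribosomal protein, was highest in this tumor, with a difference of 0.23. Hspa5, the main chaperone of the ER, was lowest at 266 FPKM, against 331 to 438 FPKM in the others, and Dstn, an actin-severing protein, was lowest at 219 FPKM, against 270.2 to 413 FPKM. Pdia3 differed by -0.06, and this sign turned to 0.27 with quantile normalization.

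Chromosome 2 genes in 11 lists by role were compared, with 41.1% highest and 70.7% above the median over all members as the background. They were written with earlier results of these values known. The signaling list stood highest. IgG replicate 3 was above the median of the others for 19 of its 23 tested genes and highest for 13, with none lowest and a median difference of 0.37, against 0.23 over all members. Pmepa1, an inhibitor of TGF-beta signaling, was at 70.2, 89.3 and 115 FPKM in the IgG tumors and at 67.0, 50.7 and 38.0 FPKM in the anti-PD-1 tumors. Abl1, a tyrosine kinase, was at 15.5, 14.9 and 23.1 FPKM, and at 15.1, 14.1 and 14.8 FPKM. For Abl1 the other 5 tumors were nearly level. Spred1, a brake on Ras, and Rxra, a nuclear receptor, were highest, with differences of 0.31 and 0.27, and the kinase Src differed by 0.03.

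Cell cycle genes had a median near that of all members and were seldom highest. Of 25 genes, IgG replicate 3 was above the median for 21, highest for 3 and lowest for none. Their median difference was 0.22, against 0.23 over all members. Ckap2l, a spindle protein, and Dut, which removes dUTP, differed by 0.57 and 0.36, and Pcna, the replication clamp, by -0.02. Of 14 genes of mitochondrial energy, 9 were above the median, 2 highest and 1 lowest, with a median of 0.15. Idh3b of the citric acid cycle and Ndufs3 of complex I were highest, with differences of 0.37 and 0.23, whereas Atp5g3 of ATP synthase was at -0.21.

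Matrix, adhesion and mesenchyme genes did not follow the chromosome as a list. Of the 24 tested of 33 listed, IgG replicate 3 was above the median for 11, highest for 4 and lowest for 5, with a median of -0.14. Thbs1, an adhesive matrix glycoprotein, was at 151, 164 and 70.0 FPKM in the IgG tumors and at 131, 90.4 and 74.7 FPKM in the anti-PD-1 tumors. Sulf2, an extracellular heparan sulfatase, was at 59.4, 59.8 and 86.8 FPKM, and at 72.6, 65.5 and 66.9 FPKM. Thbs1 was thus lowest and Sulf2 highest in this tumor. Sdc4 and Col9a3 differed by 0.08 and -0.51.

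Immune genes were split. Of 27 tested, 14 were above the median, 4 highest and 6 lowest, with a median of 0.05. Ctsz, a lysosomal cathepsin, was at 49.3, 90.8 and 111 FPKM in the IgG tumors and at 55.7, 44.4 and 48.6 FPKM in the anti-PD-1 tumors, highest in IgG replicate 3. Cst3 was lowest by 0.29 below the median, and Lbp, which binds lipopolysaccharide, was at 44.8 FPKM, between 37.8 and 119 FPKM in the others. Traf1, a TNF receptor adaptor, was the member of this list with the largest difference, 1.71, at 0.67, 1.03 and 4.32 FPKM, and at 0.60, 0.35 and 0.62 FPKM, and was named after its values were seen. Of the 20 genes in the WAP four-disulfide core and trypsin inhibitor list 6 were tested, with a median of -1.16. IgG replicate 3 was lowest for 3 of them, including Slpi, a secreted antiprotease, at 10.7, 20.1 and 3.85 FPKM, and at 12.4, 9.92 and 4.39 FPKM. Spint1, a membrane protease inhibitor, was the 1 highest, with a difference of 0.30.

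The remaining lists had medians near 0. Of 21 transcription factors, 11 were above the median, 6 highest and 4 lowest, with a median of 0.01. Cebpb and Tfap2c differed by 0.03 and 0.01, and the epithelial factors Ehf and Elf5 by -0.16 and -0.20. Gata3, the luminal factor, was highest at 57.6 FPKM, against 29.0 to 48.2 FPKM, and was named after its values were seen. Medians were 0.07 for 18 metabolism genes (11 above the median, 4 highest, 4 lowest), 0.05 for 10 ribosome and translation genes (7, 3 and 1), 0.10 for 6 imprinted genes (3, 2 and 2) and -0.06 for 7 proteasome genes (3, 2 and 2). Gnas, the imprinted G protein subunit gene, was highest, with a difference of 0.65, and Ckmt1, a mitochondrial creatine kinase, lowest by 0.68 below the median.

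**Figure D5:**
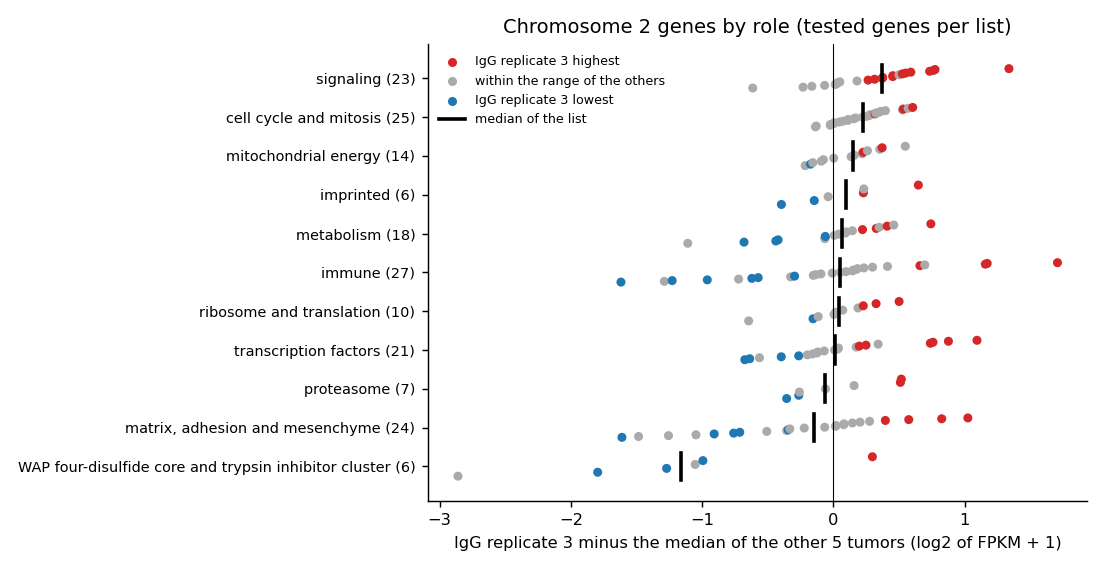
Difference of IgG replicate 3 from the median of the other 5 tumors (x axis, log2(FPKM + 1)) for the tested chromosome 2 genes of 11 role lists (y axis, number tested in brackets); red and blue points are genes in which this tumor was the highest or the lowest, and the black bar is the median of the list. The median was 0.37 for signaling and -1.16 for the WAP four-disulfide core and trypsin inhibitor list.

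Cell type markers also differed in IgG replicate 3. The epithelial markers Krt8 (431 to 1041 FPKM), Krt18 (685 to 1385 FPKM) and Epcam (690 to 1150 FPKM) were abundant in every tumor. Erbb2 was at 20.3 to 31.4 FPKM and Krt19 at 1.70 to 77.9 FPKM. Mammary epithelium markers (7 genes, among them Krt8, Krt18 and Erbb2) summed to 1971 FPKM in this tumor, below the 2423 to 3732 FPKM of the other 5, and 4 of the 7 were lowest in it. The 7 macrophage markers summed to 351 FPKM, against 374 to 739 FPKM, and 3 were lowest. Basal markers summed to 29.6 FPKM, within the 17.3 to 43.8 FPKM of the others, with 3 of 6 tested genes highest. Sums for fibroblasts (112 FPKM, others 80.9 to 344), endothelium (20.3, others 10.0 to 21.7), adipocytes (6.06, others 2.12 to 7.25), T cells (2.56, others 1.15 to 6.21), skeletal muscle (5.31, others 0.612 to 148) and erythroid cells (279, others 40.9 to 747) were within the range. Basal Krt5 and Krt14 were below 3 FPKM in every tumor. The part of cell makeup in the differences of single genes was not tested.

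The comparison the study was designed for, anti-PD-1 against IgG, places IgG replicate 3 in 1 of the groups. With limma over all 15069 genes, no member had an adjusted p under 0.05, and no gene elsewhere did. At an unadjusted p under 0.05, 39 members were higher in anti-PD-1 tumors (3.29%, against 6.22% of all genes tested) and 70 were lower (5.91%, against 6.05%). Limma's voom on reads recovered from the values gave 47 (3.97%, against 6.0% of the 14386 genes of that fit) and 71 (6.0%, against 6.71%), and also no member after adjustment. With a change of at least 1.5-fold in addition, 25 were higher (2.11%, against 3.9%) and 46 lower (3.88%, against 4.53%). Groups did not overlap for 55 members that were higher (4.64%, against 9.3% of all genes) and for 138 that were lower (11.6%, against 8.75%). The median log2 fold change of the members was -0.05, against 0.01 over all genes. It was 0.03, against 0.01, when IgG replicate 3 was left out, and then 45.1% of the members were lower, in place of 57.3% (49.2% of all genes). Without this tumor 61 members were higher (5.15%, against 4.92% of all genes in the same fit) and 58 lower (4.89%, against 5.06%) at an unadjusted p under 0.05.

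The 5 members with the smallest p in each direction, among those past 1.5-fold with groups that did not overlap, all had a limma adjusted p of 0.344 and an exact permutation p of 0.1, the smallest that 3 against 3 tumors allow. Higher were Wfdc5 (log2 fold change 3.95 ± 0.66, SE), Itih2, a hyaluronan-binding heavy chain (2.25 ± 0.44), Vim (1.54 ± 0.31), Adra1d, an adrenergic receptor (1.02 ± 0.21), and Creb3l1 (0.75 ± 0.16). Lower were Muc15, a membrane mucin (-2.33 ± 0.54), Ntng2, a netrin-G (-1.80 ± 0.39), Gm23608, a small nucleolar RNA with at most 8 reads in a tumor (-1.43 ± 0.28), Notch1 (-1.37 ± 0.27) and Zfp970, a zinc finger gene (-1.22 ± 0.22). Folds are on the log2(FPKM + 1) scale, which understates changes of low genes. Wfdc5 and Adra1d met the level of 0.5 FPKM only through the anti-PD-1 tumors, with IgG means of 0.40 and 0.28 FPKM. Gm23608 and Ntng2 met it only through the IgG tumors, with anti-PD-1 means of 0 and 0.36 FPKM. None of the 10 passed after adjustment.

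Notch1, the receptor of Jag and Dll ligands (ENSMUSG00000026923, chr2:26457903-26516663), was at 7.19, 11.5 and 13.5 FPKM in the IgG tumors and at 3.14, 2.59 and 4.73 FPKM in the anti-PD-1 tumors. Ntng2 was at 1.55, 4.64 and 6.17 FPKM, and at 0.40, 0.072 and 0.61 FPKM. Both had IgG replicate 3 as the highest tumor, and without it the log2 fold changes were -1.20 and -1.49. Muc15, which lies within Ano3, was at 86.3, 369 and 111 FPKM, and at 44.0, 25.7 and 22.7 FPKM, and the fold change was -2.55 without IgG replicate 3. For Vim and Wfdc5 it was 1.40 and 4.01. The 5 genes therefore kept their direction without this tumor. Of the 10 genes of the widest gap, Duox1 (from -0.81 to 0.07) and St6galnac4 (from -0.17 to 0.39) turned sign without it, and Dgkz went from -1.23 to -0.60.

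The lists by role were also counted between the groups, at an unadjusted limma p under 0.05, which 6.22% of all genes passed as higher and 6.05% as lower. In anti-PD-1 tumors 2 of 24 matrix, adhesion and mesenchyme genes were higher and 1 was lower, 1 of 23 signaling genes was higher and 3 were lower, and 1 of 21 transcription factors was higher and 2 were lower. Of 14 mitochondrial energy genes 2 were higher, of 18 metabolism genes 2 were higher, of 27 immune genes 2 were lower, and of 7 proteasome genes 1 was higher, as was 1 of 6 in the WAP four-disulfide core and trypsin inhibitor list. Cell cycle, ribosome and translation and imprinted genes had none. After adjustment over all genes tested with limma, no gene of any of these lists had an adjusted p under 0.05.

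The recovered reads came to between 21075641 and 23852764 per tumor, with 22056177 in IgG replicate 3, and depth was thus similar.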

How the data were processed

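RNAseq of 3 IgG and 3 anti-PD-1 tumors was analysed from the values that the authors deposited, with groups and replicate numbers from the sample labels. Per the submitters' processing notes and the methods, FastQC 0.11.9, cutadapt 3.5, Bowtie2 2.4.1, RSEM 1.3.1 and the authors' DESeq2 1.36.0 with R 4.1 were used on mm10. The authors deposited FPKM values, and how FPKM was made is not given in the sources used here. Of 54532 gene IDs, 54495 matched GENCODE M21 and 37 did not. FPKM times exon length gave whole reads, within 0.1 of a whole number, for 97.0% to 97.3% of detected values.

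FPKM was divided by median-of-ratios factors (1.00 to 1.01), and values were used as log2(FPKM + 1). Limma 3.58.1 under R 4.3.3 was run on genes with a mean of at least 0.5 FPKM (eBayes with an intensity trend, two-sided, Benjamini-Hochberg adjustment over 15069 genes), and single genes with two-sided exact permutation tests. Bins were placed by gene start and held at least 5 genes. Python 3.11.15, pandas 2.3.3, numpy 2.4.6 and matplotlib 3.10.9 were used otherwise. Members, lists and the choice of IgG replicate 3 were made with earlier results of these data known.

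Genes were named as the 10 most abundant protein-coding members, the 10 with the widest gap above and the 12 furthest below in IgG replicate 3 (mean of at least 5 FPKM), the 5 higher and 5 lower with the smallest p past 1.5-fold with groups apart, Vim, up to 5 per role list by mean FPKM, and those beside the 0.5 FPKM level. Alternatives were 0.1 added to FPKM, other filters, FPKM as deposited, quantile normalization, coding genes only, other comparison tumors, other zero levels and bins, limma without the trend, a replicate block, voom and leaving out each tumor. The scripts were tested on simulated data. Pearson correlations between tumors were 0.892 to 0.958. Promoter sequences were taken from RefSeq (GRCm38.p6). Reads shared by overlapping genes or paralogs could not be separated.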

Additional observations from a re-analysis of the deposited data

How the results depend on the processing

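The shift of chromosome 2 in IgG replicate 3, 0.25 as given, was 0.30 with 0.1 added to FPKM, 0.28 with a mean of at least 2 FPKM, 0.31 with a zero level outside chromosomes 2, 4, 8, 9 and 15, and 0.31 with a mean of at least 5 FPKM. It was 0.25 with the level of 0.5 FPKM set on the other 5 tumors, where 471 members were highest, and 0.0766 with no filter, where the genes near 0 are included. It stayed between 0.24 and 0.26 when each of the other tumors was left out in turn. The number of members highest in IgG replicate 3 was between 386 and 720 under the alternatives (503 to 563 without 1 of the other tumors). These alternatives differ in the genes kept and in the tumors compared, so that the counts have no common base. The shift was above 0 in 34 of 35 bins of 5 Mb, in 10 of 10 bins of 20 Mb, and in 17 of 18 bins with genes of at least 5 FPKM. The zero levels within 10 classes of exon length or of mean FPKM, the level of 5 FPKM and the levels set on the other 5 tumors were chosen after seeing the data.

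For anti-PD-1 against IgG at an unadjusted limma p under 0.05, 39 members were higher and 70 lower. Leaving out each tumor gave 22 to 61 higher and 40 to 99 lower. Without IgG replicate 1 there were 61 higher (5.15%, all genes 8.44%) and 99 lower (8.35%, all genes 9.34%), without IgG replicate 2 there were 22 higher (1.86%, all genes 3.36%), without IgG replicate 3 there were 61 higher (5.15%, all genes 4.92%), and without anti-PD-1 replicate 3 there were 40 lower (3.38%, all genes 3.40%). No filter gave 58 (2.77%, all genes 4.19%) and 90 (4.29%, all genes 3.81%). The median log2 fold change relative to all genes, -0.05, ran from -0.10 to 0.02, with the positive value without IgG replicate 3. With limma adjustment over all genes, 12 genes passed without IgG replicate 1, and 1 passed without IgG replicate 3, with protein-coding genes only and with voom on recovered reads, none of them a member. The replicate block gave 42 higher (3.54%, all genes 6.09%) and 63 lower (5.32%, all genes 5.36%), with a median of -0.05. The numbers pair no tumors by the labels, and the correlations of the deviations of equally numbered tumors were -0.16, 0.01 and 0.19. For single genes, 267 values under alternatives were compared. A difference of IgG replicate 3 counted as unchanged with the same sign and a move below the SD of the other 5 tumors. A log2 fold change counted as unchanged with the same sign and the same side of a limma adjusted p of 0.05. No member passed that level in any fit, and the size of the fold change was not compared. By these rules 260 were unchanged and 1 reversed, Pdia3, whose difference in IgG replicate 3 was 0.27 with quantile normalization. The cause was not tested. With 3 tumors in a group no exact test of a single gene could go below 0.1, and the spread of IgG replicate 3 adds to that of its group.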
